A study of Mus musculus with 9 samples.

Results

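RNA of 3 mouse livers labelled treated was compared with RNA of 3 mouse livers labelled control, as 6 of the 9 libraries of a study of liver damage under gefitinib, an inhibitor of the epidermal growth factor receptor (EGFR) kinase. The members of the comparison were the treated and control columns of the deposited gene count matrix, taken by their labels, and all 18113 genes that passed a filter on low counts were tested. Of these, 17951 had a count in both groups, and it is these genes that are described by name here. The remaining 3 libraries, labelled model, entered the same fit and are given beside some values. The labels give the tissue as liver while the titles speak of liver cells, and they state no strain, sex, age, dose, time or batch. What was given to the treated mice is not stated, nor whether they also had the drug of the model group. The labels leave unsaid whether each library of a group is its own animal, so p-values measure the spread between libraries, which may be technical in part.

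The liver is built mostly of hepatocytes, which make plasma proteins, bile acids and glucose and clear drugs, along capillaries called sinusoids that are lined by a fenestrated endothelium. Kupffer cells, the resident macrophages, sit in the sinusoids, and hepatic stellate cells store vitamin A and can turn into matrix-forming cells after injury. EGFR signals through the ERK kinases to early response genes and to the cell cycle, and gefitinib is cleared largely by hepatocyte cytochrome P450 enzymes. The hepatocyte markers were at high levels in all 6 libraries. Albumin (Alb) stood at 56359, 66362 and 52762 CPM in the control libraries and 46592, 47589 and 55431 CPM in the treated libraries, and its groups overlapped and did not differ by the test (log2 fold change -0.23 with SE 0.12, adjusted p = 0.223).

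Treated and control livers differed in a large share of their genes, in both directions. At a Benjamini-Hochberg adjusted p under 0.05 in edgeR's quasi-likelihood test, 1696 genes were higher in treated livers (9.36% of all tested) and 1535 were lower (8.47%), in total 17.8%. Changes of at least 2-fold were more often upward, with 912 genes higher (5.04%) and 542 lower (2.99%). Among genes counted in both groups, 1658 were higher with a median of 2.10-fold and 1528 were lower with a median of 1.70-fold. A change of at least 16-fold was fitted for 69 of the higher and 12 of the lower genes. The libraries of the 2 groups did not overlap in 37.3% of all genes tested, and they overlapped in 16 of the called genes. On the first principal component of the 6 libraries, with 46.4% of the variance, control libraries lay between -77.7 and -60.2 and treated libraries between 57.9 and 75.3. Library totals were 56440871 to 60665156 estimated counts. Treated against model livers, a comparison that shares the treated libraries, had 9.65% of genes called.

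The split between higher and lower genes depended on the scaling. Levels are given as CPM, counts relative to library sizes scaled by TMM, a method that sets most genes to no change. With library totals alone, 3021 genes were higher and 819 lower, so that 78.7% of called genes were higher instead of 52.5%, and the median of all genes moved by 0.21 on the log2 scale. Directions below are relative to the TMM scaling, and where library totals change the direction of a group this is said. Without treated replicate 1, 999 genes were lower.

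**Figure D1:**
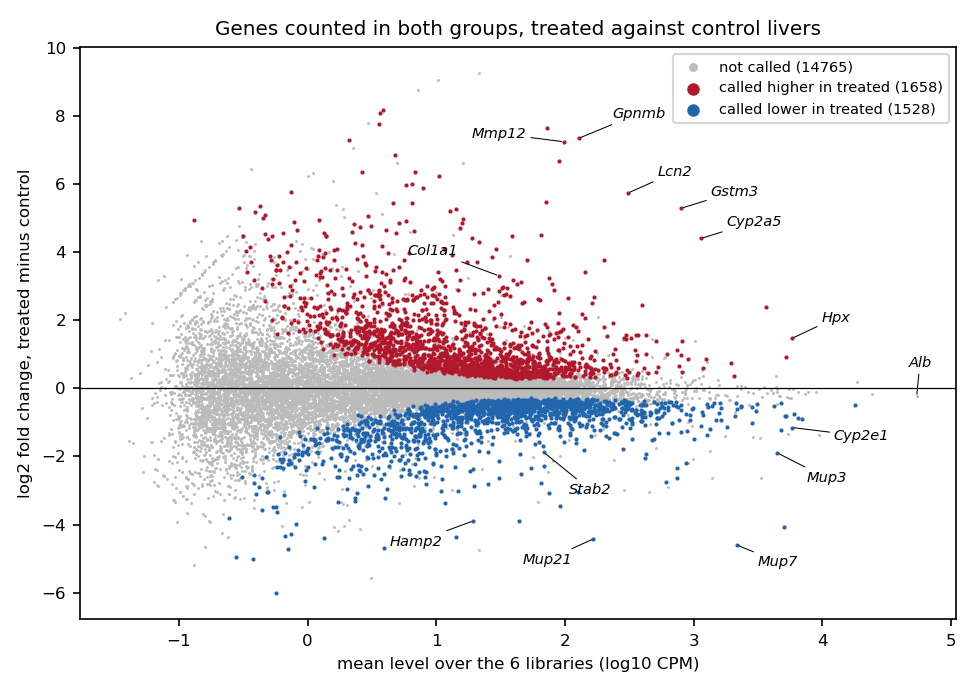
Log2 fold change of treated against control livers (vertical axis) for each gene counted in both groups, by its mean level over the 6 libraries (log10 CPM, horizontal axis). Red points are the 1658 genes called higher and blue points the 1528 called lower at an adjusted p under 0.05, and grey points were not called. Changes above 16-fold are mostly upward, with 69 genes against 12, and the lowest points among the most abundant genes are major urinary protein genes.

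Transcripts of the liver endothelium were lower in treated livers in nearly the whole list. Of 22 endothelial markers tested, 21 fell, each by at least 2-fold, and none rose, against 8.47% lower and 9.36% higher over all genes tested. Their median log2 fold change was -1.88 against -0.01 over all genes. Stab2, a scavenger receptor of sinusoidal endothelium (chromosome 10, 86841198 to 87008025, build GRCm38), was at 91.5, 112 and 121 CPM in the control libraries and 25.8, 30.2 and 32.1 CPM in the treated libraries. Each treated library lay below 91.5 CPM, the lowest control library, and the fall was 3.68-fold (log2 fold change -1.88 with SE 0.14, adjusted p = 3.05e-05). Fcgr2b, an inhibitory Fc receptor of the same cells, was at 56.3, 43.97 and 49.1 CPM in the control libraries and 8.87, 12.7 and 12.8 CPM in the treated libraries and fell 4.35-fold (log2 fold change -2.12 with SE 0.16, adjusted p = 2.27e-05).

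Tek, the angiopoietin receptor TIE2, was at 9.99, 9.998 and 11.9 CPM in the control libraries and 1.64, 2.29 and 1.70 CPM in the treated libraries, with no overlap of the groups (log2 fold change -2.50 with SE 0.21, adjusted p = 5.23e-05). Oit3, a secreted protein of sinusoidal endothelium, fell from 20.3, 15.7 and 22.4 CPM to 1.36, 2.57 and 3.27 CPM, the steepest fall of the list (log2 fold change -3.02 with SE 0.31, adjusted p = 0.000141). The pan-endothelial adhesion molecule Pecam1, the VEGF receptor Kdr and the hyaluronan receptor Lyve1, named after their values were seen, fell by 1.89, 2.86 and 1.73 on the log2 scale. The 1 marker without a call was Vwf. Summed over the list, endothelial transcripts made up 604, 548 and 655 CPM in the control, 258, 257 and 246 CPM in the model and 131, 191 and 191 CPM in the treated libraries. All treated libraries were thus below all model libraries, which were below all control libraries. In RNA of whole samples, fewer cells of a type and less RNA per cell cannot be told apart. Bmp2, a ligand of the TGF-beta family that liver endothelium supplies, fell 5.45-fold (log2 fold change -2.45, adjusted p = 9.77e-05), and Cldn5, an endothelial tight junction claudin, fell 6.33-fold (log2 fold change -2.66, adjusted p = 0.000268).

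Macrophage transcripts changed the other way. Of 17 markers of phagocytic, lipid-associated macrophages 13 rose and none fell (median log2 fold change 2.46), and of 18 general macrophage and monocyte markers 10 rose and none fell (median 1.76). Gpnmb, a glycoprotein of phagocytes loaded with lipid or debris (chromosome 6, 49036546 to 49070929), was at 1.88, 1.42 and 1.38 CPM in the control libraries and 265, 316 and 182 CPM in the treated libraries. The model libraries held 6.39, 10.1 and 5.95 CPM, above every control library and far below every treated one. The rise against control was 163-fold (log2 fold change 7.35 with SE 0.33, adjusted p = 5.16e-06). Mmp12, the macrophage metalloelastase, stood at 1.48, 1.58 and 0.784 CPM in the control libraries and 194, 216 and 173 CPM in the treated libraries, a rise of 152-fold with no overlap (log2 fold change 7.25 with SE 0.47, adjusted p = 9.77e-05). Lgals3, a galectin of activated macrophages, stood at 3.43, 2.15 and 3.83 CPM in the control libraries and 137, 158 and 125 CPM in the treated libraries (log2 fold change 5.48 with SE 0.30, adjusted p = 1.36e-05).

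General macrophage genes moved by smaller folds. Cd68, a lysosomal glycoprotein of macrophages, went from 7.65, 7.25 and 7.56 CPM to 46.2, 59.1 and 57.6 CPM (log2 fold change 2.86 with SE 0.19, adjusted p = 1.36e-05). Mpeg1, a pore-forming protein, went from 28.3, 27.2 and 31.01 CPM to 207, 156 and 187 CPM (log2 fold change 2.67 with SE 0.13, adjusted p = 2.76e-06), and Ctss, a lysosomal cysteine protease of antigen-presenting cells, from 16.01, 14.4 and 20.4 CPM to 130.4, 141 and 151 CPM (log2 fold change 3.06 with SE 0.18, adjusted p = 7.62e-06). The immune receptor Lilr4b had the smallest p of all genes counted in both groups, at 2.93, 2.79 and 4.18 CPM in the control libraries and 70.1, 68.2 and 83.4 CPM in the treated libraries (log2 fold change 4.48 with SE 0.17, adjusted p = 5.9e-07). Trem2, a lipid receptor of these macrophages named after its values were seen, rose from 0.34, 0 and 0.765 CPM to 11.1, 10.3 and 12.3 CPM (log2 fold change 4.92, adjusted p = 0.00974). In the Kupffer cell list 2 of 12 markers rose and 1 fell (median 0.04). The risers were Marco, a scavenger receptor (2.63 on the log2 scale, adjusted p = 0.00734), and Folr2, whose exons overlap another gene and whose call was lost with 9 of 19 alternatives, for example in fits without control replicate 2 or 3 or treated replicate 2 or 3. The iron exporter Slc40a1 fell (log2 fold change -1.003, adjusted p = 0.00098).

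Summed over each list, phagocytic macrophage transcripts made up 985, 959 and 943 CPM in control, 1106, 1071 and 1117 CPM in model and 2640.0, 2779 and 2279.7 CPM in treated libraries, and general macrophage transcripts 249, 197 and 289 CPM in control and 926, 1027 and 1028 CPM in treated libraries. Every treated library lay above every control library in both sums, to which other liver cells also contribute. The part of macrophage RNA in the gene groups below was not tested.

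Neutrophil transcripts rose in part and unevenly between treated libraries. Of 16 markers tested 7 rose, and 4 without control replicate 1 or 3. Lcn2, a siderophore-binding protein that neutrophils and hepatocytes both make, stood at 4.15, 18.9 and 11.1 CPM in the control libraries and 775, 449.5 and 603 CPM in the treated libraries (log2 fold change 5.74 with SE 0.60, adjusted p = 0.00102). The alarmin S100a8, named after its values were seen, was at 0.268, 0.75 and 0.541 CPM in the control libraries and 4.96, 1.65 and 32.1 CPM in the treated libraries. It was called (log2 fold change 4.63 with SE 1.20, adjusted p = 0.0395), but treated replicate 3 lay far above the other treated libraries, and the call was lost without any 1 control library and without treated replicate 1. None of 18 T and natural killer cell markers and none of 12 B cell markers was called by edgeR in either direction, and with an unadjusted p under 0.05, DESeq2 or limma-voom the number was also 0 in both lists. The levels were low, with sums of 15.98, 8.88 and 21.5 CPM in control and 13.9, 9.62 and 16.4 CPM in treated libraries for the first list.

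One tissue outside the liver was visible in the libraries. The 18 skeletal muscle genes summed to 50.8, 32.1 and 33.9 CPM in control, 286, 30.8 and 22.4 CPM in model and 247, 205 and 228 CPM in treated libraries. All 3 treated libraries and model replicate 1 were thus several times above the other libraries, and the treated libraries lay above all control libraries. Of the 18 genes 12 had a count in both groups. None was called by edgeR, and 13 had an unadjusted p under 0.05, against 5721 of all 18113 genes tested. DESeq2 called 5 and limma-voom 8 of the muscle genes higher. The muscle myosin light chain Mylpf was at 0.232, 0.961 and 0.504 CPM in the control libraries and 11.4, 6.35 and 8.56 CPM in the treated libraries (adjusted p = 0.0826). The part of muscle RNA in other results was not tested. Adipocyte and mesothelial markers summed to 13.1, 9.48 and 7.61 CPM in control and 9.92, 14.6 and 16.6 CPM in treated libraries.

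**Figure D2:**
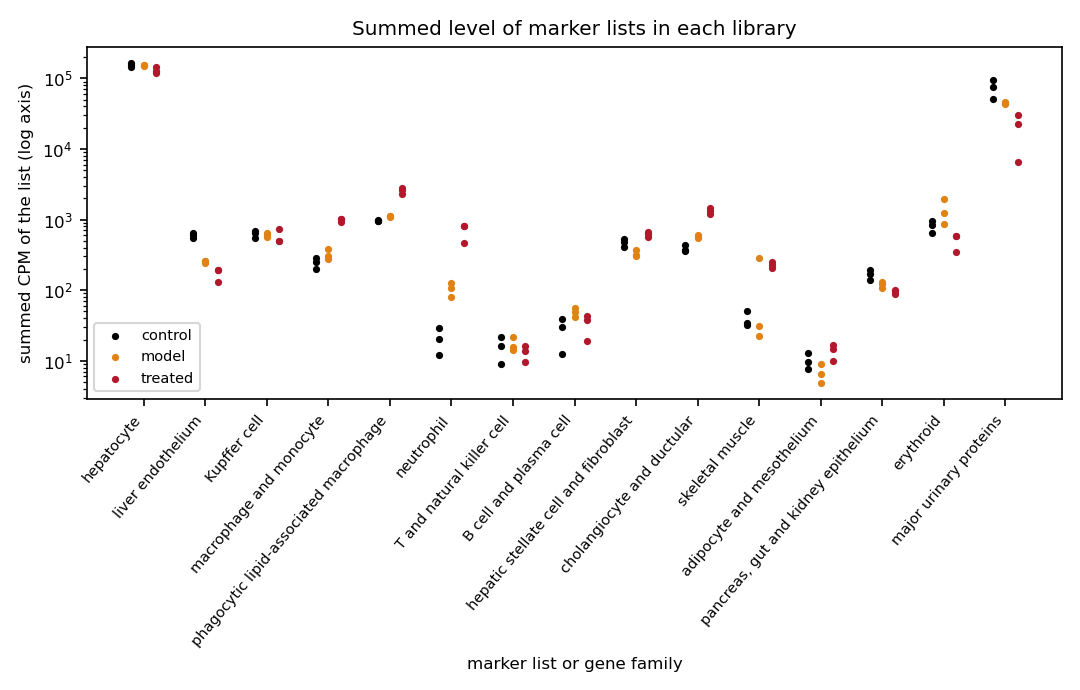
Summed level of each marker list in each library (CPM, log axis), with control in black, model in orange and treated in red. Endothelial sums fall from 548 to 655 CPM in control to 131 to 191 CPM in treated libraries, while macrophage and neutrophil sums (the latter mostly Lcn2) lie higher in treated libraries, and skeletal muscle RNA is high in 4 of 9 libraries.

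Genes of the extracellular matrix changed in both directions, with type I and III collagen and several matrix proteases higher. Of 20 collagen chains 9 rose and 2 fell, and of 18 metalloproteinases, related proteases and inhibitors 11 rose and none fell (medians 0.70 and 1.75). Col1a1, a chain of type I collagen, was at 6.24, 5.86 and 4.70 CPM in the control libraries and 47.8, 71.9 and 47.04 CPM in the treated libraries and rose 9.92-fold (log2 fold change 3.31 with SE 0.22, adjusted p = 1.36e-05). Its partner chain Col1a2 was at 17.1, 14.5 and 11.1 CPM in the control libraries and 46.6, 69.5 and 45.4 CPM in the treated libraries (log2 fold change 1.92 with SE 0.24, adjusted p = 0.000719). For both chains every treated library lay far above every control library. Col27a1 and Col18a1, the latter a basement membrane collagen named after its values were seen, fell by 2.33 and 0.64 on the log2 scale.

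Of 20 stellate cell genes 4 rose, 4 fell and 12 were not called, against 9.36% higher and 8.47% lower over all genes tested. Reln, Des, Pdgfrb and Acta2, named after their values were seen, were among those not called (Acta2 log2 fold change 0.06, adjusted p = 0.979). The 4 risers were collagens and Lum, a collagen-binding proteoglycan. The 4 members that fell were Lrat, the retinol esterifying enzyme of vitamin A storing cells, with Rgs5, Ngfr and Colec11. Without control replicate 1 or treated replicate 2, 2 members fell. Lrat was at 11.1, 12.998 and 7.80 CPM in the control libraries and 4.81, 4.05 and 3.75 CPM in the treated libraries (log2 fold change -1.34 with SE 0.23, adjusted p = 0.00255). Lum, Rgs5, Ngfr and Colec11 were named after their values were seen, with log2 fold changes of 1.11, -0.80, -1.33 and -0.71. The falls of Ngfr and Colec11 were lost without single libraries, for Ngfr control replicate 1 or treated replicate 2 or 3, and for Colec11 control replicate 1 or 2 or treated replicate 1 or 2. Among matrix glycoproteins, Thbs1, which activates latent TGF-beta, rose 6.11-fold (log2 fold change 2.61, adjusted p = 0.0019), and Lama3, a laminin chain, fell 3.53-fold (log2 fold change -1.82, adjusted p = 0.00178).

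Some of the proteases had larger folds than any collagen chain. Mmp13, a collagenase, was at 0.179, 0.231 and 0.0746 CPM in the control libraries and 16.03, 14.8 and 9.35 CPM in the treated libraries (log2 fold change 6.36 with SE 0.45, adjusted p = 1.97e-05), and Adam8, a membrane protease of leukocytes, at 0.465, 0.442 and 1.27 CPM in the control libraries and 26.01, 29.6 and 28.5 CPM in the treated libraries (log2 fold change 5.27 with SE 0.41, adjusted p = 5.92e-05). AP-1, a dimer of JUN and FOS proteins, is known to bind the promoters of metalloproteinase genes. The 250 bases before the start of Mmp13 and Mmp12 are shown because both genes hold the AP-1 motif TGANTCA (N is any base, and the motif reads the same on both strands) close to the start. The sequences are RefSeq's, build GRCm38.p6, plus strand, at chr9:7272264-7272513 and chr9:7347124-7347373, 5′ to 3′, with the motif in capitals.
Mmp13: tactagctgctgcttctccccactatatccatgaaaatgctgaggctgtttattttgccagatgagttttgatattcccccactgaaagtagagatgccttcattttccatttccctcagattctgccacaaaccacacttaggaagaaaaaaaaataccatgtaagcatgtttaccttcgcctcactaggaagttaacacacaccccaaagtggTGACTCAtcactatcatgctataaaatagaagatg
Mmp12: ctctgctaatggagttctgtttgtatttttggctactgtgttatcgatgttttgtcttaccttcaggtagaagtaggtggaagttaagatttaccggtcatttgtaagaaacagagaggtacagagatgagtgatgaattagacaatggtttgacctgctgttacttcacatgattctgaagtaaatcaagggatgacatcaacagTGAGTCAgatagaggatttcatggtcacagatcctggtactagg
The motif starts 35 bases before the start of Mmp13 and 44 before that of Mmp12. It was present in 6 of the 15 listed genes with a promoter in the table, among them 3 of the 7 that rose and none of the 5 others tested (the remaining 3 were not tested), and in 7.82% of all 27025 genes. A match describes the letters only.

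The early response genes that AP-1 belongs to were higher as well. Of 37 ERK feedback and immediate early genes 19 rose and 2 fell, with a median log2 fold change of 1.09. Atf3, a stress-induced partner of JUN, stood at 1.36, 0.673 and 1.32 CPM in the control libraries and 31.6, 32.3 and 23.97 CPM in the treated libraries and rose 26.1-fold (log2 fold change 4.71 with SE 0.27, adjusted p = 5.16e-06). Klf6, an early response zinc finger factor, stood at 8.79, 6.27 and 7.18 CPM in the control libraries and 64.5, 50.9 and 61.9 CPM in the treated libraries (log2 fold change 2.99 with SE 0.15, adjusted p = 2.76e-06), and Jund at 46.5, 44.5 and 40.7 CPM in the control libraries and 175, 109 and 161 CPM in the treated libraries (log2 fold change 1.76 with SE 0.16, adjusted p = 7.26e-05). In none of these genes did the groups overlap. The ERK inhibitor Spry4 and the ERK target Phlda1, named after their values were seen, were the members that fell, by 1.78 and 1.41 on the log2 scale. Dusp8, a phosphatase of stress-activated MAP kinases, was among the 12 called genes with the largest rise that were counted in both groups, reached 5 CPM in treated livers and did not overlap, at 0.197, 0.0769 and 0.261 CPM in the control libraries and 13.1, 8.19 and 12.9 CPM in the treated libraries (log2 fold change 5.97 with SE 0.47, adjusted p = 3.61e-05).

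Of 19 genes of the EGFR family, its ligands and adaptors, 5 rose and 1 fell. The receptor gene Egfr, whose kinase gefitinib blocks, stood at 499, 270.4 and 366 CPM in the control libraries and 371, 429 and 606 CPM in the treated libraries. Its groups overlapped, with control replicate 1 above treated replicates 1 and 2, and it was not called (log2 fold change 0.31 with SE 0.26, adjusted p = 0.472). The ligand Tgfa, transforming growth factor alpha, was at 15.1, 16.9 and 14.5 CPM in the control libraries and 46.2, 34.4 and 31.6 CPM in the treated libraries and rose 2.41-fold (log2 fold change 1.27 with SE 0.16, adjusted p = 0.000467). Nrg1, a ligand of the related receptor ERBB3, rose from 0.0715, 0.231 and 0.205 CPM to 10.5, 3.50 and 3.05 CPM (log2 fold change 5.06 with SE 0.75, adjusted p = 0.00143), with treated replicate 1 about 3 times the other treated libraries. Erbb3 was the member that fell, from 167, 171 and 131 CPM to 87.5, 85.3 and 90.7 CPM (log2 fold change -0.83 with SE 0.15, adjusted p = 0.00366).

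Many cell division genes rose. Of 37 cell cycle genes 20 rose and 2 fell (median 1.59), and 13 rose without control replicate 2 or without treated replicate 3. Ccnd1, cyclin D1, which moves cells out of rest, was at 11.2, 6.92 and 6.27 CPM in the control libraries and 58.2, 79.1 and 52.8 CPM in the treated libraries (log2 fold change 2.96 with SE 0.26, adjusted p = 0.000116), with part of its exons shared with a neighbouring gene. Mcm6, a subunit of the replicative helicase, was at 4.47, 3.73 and 4.74 CPM in the control libraries and 11.4, 11.9 and 15.8 CPM in the treated libraries (log2 fold change 1.59 with SE 0.19, adjusted p = 0.0004), and the mitotic cyclin Ccnb1 at 0.429, 0.0961 and 0.131 CPM in the control libraries and 3.49, 5.16 and 9.41 CPM in the treated libraries (log2 fold change 4.76 with SE 0.64, adjusted p = 0.000814). Mki67, the proliferation antigen named after its values were seen, rose from 2.13, 1.92 and 1.36 CPM to 11.5, 10.2 and 18.7 CPM (log2 fold change 2.90, adjusted p = 0.00524). The groups did not overlap in any of these genes.

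Among 31 p53 and DNA damage genes 14 rose and none fell (median 0.86). Trp53inp1, a p53-inducible nuclear protein, was at 60.8, 47.1 and 39.5 CPM in the control libraries and 171, 207 and 288 CPM in the treated libraries (log2 fold change 2.18 with SE 0.22, adjusted p = 0.000231). Mdm2, the ubiquitin ligase that p53 induces against itself, rose 1.82-fold (log2 fold change 0.86, adjusted p = 0.0007), and the stress hormone Gdf15 rose 4.85-fold (log2 fold change 2.28, adjusted p = 0.000663). In the list of 32 cell death genes 8 rose and 4 fell. Mlkl, the executor of necroptosis, was at 2.29, 2.54 and 2.09 CPM in the control libraries and 9.99, 8.89 and 10.1 CPM in the treated libraries (log2 fold change 2.06 with SE 0.22, adjusted p = 0.000186), and Bik, a BH3-only promoter of apoptosis, at 13.2, 11.8 and 10.5 CPM in the control libraries and 1.82, 2.23 and 1.92 CPM in the treated libraries (log2 fold change -2.57 with SE 0.22, adjusted p = 5.09e-05). Both genes had separate groups, Mlkl higher and Bik lower in treated livers. The number of cell death genes that rose was 5 without control replicate 2, and the number that fell was 1 or 2 when any single library was left out.

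**Figure D3:**
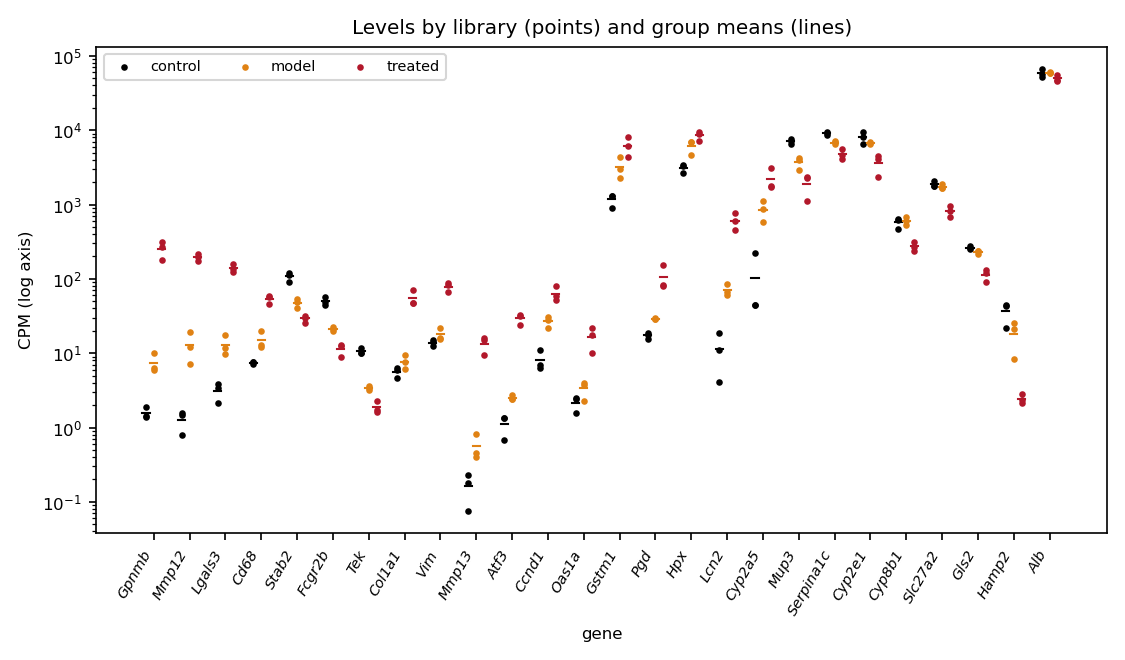
Level of 26 genes in each library (points, CPM, log axis) with the mean of each group as a line, control in black, model in orange and treated in red. Gpnmb, Mmp12, Mmp13 and Lcn2 stand highest above their control levels, Hamp2 and Tek stand below, and the groups overlap for Alb.

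Structural genes of the cell had the largest share of risers of the 65 lists. Of 29 genes for actins, tubulins, annexins, S100 proteins and related cytoskeletal proteins 26 rose and none fell (median 1.83). Vim, the intermediate filament of mesenchymal cells and macrophages, was at 15.05, 14.3 and 12.3 CPM in the control libraries and 66.96, 86.95 and 82.4 CPM in the treated libraries (log2 fold change 2.50 with SE 0.16, adjusted p = 1.18e-05), and the cytoplasmic actin Actg1 at 52.8, 58.2 and 53.6 CPM in the control libraries and 282, 210.3 and 205 CPM in the treated libraries (log2 fold change 2.08 with SE 0.14, adjusted p = 1.36e-05). Krt8 and Krt18, the keratin pair of hepatocytes and bile duct cells, rose too. Krt8 was at 142, 122 and 102 CPM in the control libraries and 748, 646 and 609 CPM in the treated libraries (log2 fold change 2.45 with SE 0.15, adjusted p = 7.62e-06), and Krt18 rose 2.94-fold (log2 fold change 1.55, adjusted p = 6.1e-05). Of 15 cholangiocyte and ductular markers, these keratins and the annexin Anxa5 were the 3 that rose. The macrophage sums given above were higher in the same libraries.

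Inflammatory and interferon genes rose in a large share of their lists. Of 26 genes for cytokines, receptors, adhesion molecules and NF-kappaB signalling 13 rose and none fell (median 0.81). In this list the cytokine genes Tnf, Il1a, Il1b, Il18, Il33 and Csf1, named after their values were seen, were not called. Il6, Il10 and Osm were not tested. Of 24 chemokines 12 rose and 2 fell (median 1.81). Of 37 interferon response genes 21 rose and 1 fell, none without control replicate 1 or treated replicate 1 or 2 (median 1.07). Tnfrsf12a, the receptor of the cytokine TWEAK, was at 5.84, 6.33 and 5.39 CPM in the control libraries and 48.9, 39.4 and 33.995 CPM in the treated libraries (log2 fold change 2.80 with SE 0.17, adjusted p = 7.62e-06). Il1rn, the secreted antagonist of interleukin-1, was at 3.41, 4.75 and 2.35 CPM in the control libraries and 30.8, 24.7 and 23.2 CPM in the treated libraries (log2 fold change 2.90 with SE 0.24, adjusted p = 5.09e-05). Cxcl2, which attracts neutrophils, rose 13.5-fold from 0.143, 0.192 and 0.149 CPM (log2 fold change 3.76, adjusted p = 0.000489), whereas Cxcl12, which holds cells that carry CXCR4, fell 2.20-fold (log2 fold change -1.14, adjusted p = 0.000108). The groups did not overlap in these 4 genes.

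Interferon-stimulated genes carry a response element bound by the STAT and IRF factors. Oas1a, Oas3 and Oas1g, neighbouring genes of the oligoadenylate synthetases that sense double-stranded RNA, are shown because they rose together and hold this element. Oas1a was at 2.41, 1.58 and 2.50 CPM in the control libraries and 21.7, 10.2 and 17.6 CPM in the treated libraries (log2 fold change 2.93 with SE 0.33, adjusted p = 0.00025). Oas3 and Oas1g, named after their values were seen, rose by 3.24 and 3.25 on the log2 scale with no overlap of the groups. Their 250 bases before the start, from RefSeq, build GRCm38.p6, lie on the minus strand of chr5:120907526-120907775, chr5:120777660-120777909 and chr5:120887614-120887863, written 5′ to 3′ with the element in capitals, a pair of GAAA spaced by 2 bases of any kind.
Oas1a: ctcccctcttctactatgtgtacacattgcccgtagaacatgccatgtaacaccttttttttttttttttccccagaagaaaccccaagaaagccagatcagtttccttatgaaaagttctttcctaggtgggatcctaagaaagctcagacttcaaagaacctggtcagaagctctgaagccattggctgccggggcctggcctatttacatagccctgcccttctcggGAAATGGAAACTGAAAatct
Oas3: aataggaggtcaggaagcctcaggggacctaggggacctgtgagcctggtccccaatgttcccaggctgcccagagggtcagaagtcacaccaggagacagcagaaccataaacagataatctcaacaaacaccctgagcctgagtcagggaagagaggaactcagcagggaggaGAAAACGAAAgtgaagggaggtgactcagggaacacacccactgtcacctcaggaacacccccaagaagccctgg
Oas1g: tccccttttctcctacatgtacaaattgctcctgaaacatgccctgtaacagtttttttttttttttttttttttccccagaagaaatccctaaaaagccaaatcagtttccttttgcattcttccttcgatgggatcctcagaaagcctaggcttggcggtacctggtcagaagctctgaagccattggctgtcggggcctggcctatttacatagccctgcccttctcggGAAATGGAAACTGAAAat
In Oas1a and Oas1g 2 overlapping copies lie next to the start, the first from 20 and 18 bases before it, and in Oas3 the element starts 75 bases before it. Searched on both strands, the element was in 16 of 29 listed genes with a promoter in the table, in 10 of the 17 that rose and in 6 of the 12 others, and in 3.46% of all 27025 genes. A match describes the letters only. Usp18, which trims the ubiquitin-like ISG15, rose 4.94-fold (log2 fold change 2.30, adjusted p = 0.000168). Of 15 antigen presentation genes 7 rose and none fell, with Cd74, the invariant chain, at 49.5, 30.6 and 51.6 CPM in the control libraries and 115, 129.8 and 166 CPM in the treated libraries (log2 fold change 1.64 with SE 0.22, adjusted p = 0.000903). That number was 4 without control replicate 2 or treated replicate 1 or 3, and 3 without control replicate 3.

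Acute phase genes that were called were mostly higher. Of 30 such genes tested 13 rose, 10 of them at least 2-fold, 2 fell and 15 were not called. Hpx, hemopexin, which binds free heme, was at 3251, 2636 and 3392 CPM in the control libraries and 8874, 7221 and 9606 CPM in the treated libraries (log2 fold change 1.47 with SE 0.18, adjusted p = 0.000412), and Hp, haptoglobin, at 3655, 3097 and 3985 CPM in the control libraries and 6315, 7078 and 7093 CPM in the treated libraries (log2 fold change 0.93 with SE 0.12, adjusted p = 0.000684). In both, all treated libraries lay above all control libraries. Steap4, a metalloreductase, rose 3.67-fold (log2 fold change 1.88, adjusted p = 2.05e-05). Hamp2, a paralog of the iron hormone hepcidin (chromosome 7, 30922372 to 30924181), was at 21.5, 45.1 and 42.6 CPM in the control libraries and 2.38, 2.14 and 2.83 CPM in the treated libraries and fell 14.9-fold (log2 fold change -3.89 with SE 0.48, adjusted p = 0.00151). Hepcidin itself, Hamp, named after its values were seen, was at 574, 351 and 241 CPM in the control libraries and 37.2, 58.3 and 176 CPM in the treated libraries. Its groups did not overlap but varied within themselves, and it was not called (log2 fold change -2.10 with SE 0.92, adjusted p = 0.174). Fth1, the ferritin heavy chain, which stores iron, rose 1.68-fold (log2 fold change 0.75, adjusted p = 0.000954). Of 37 complement and coagulation genes none rose and 10 fell, 6 without control replicate 1 or treated replicate 1, and 5 without control replicate 2. Klkb1, plasma kallikrein, fell 1.79-fold (log2 fold change -0.84, adjusted p = 0.0013). With library totals 2 of these genes rose and 3 fell, and the list's median moved from -0.27 to -0.07.

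Genes of thiol and quinone defence, known targets of the factor NRF2, rose in most of their list. Of 34 such genes 25 rose and none fell (median 1.20). Gstm1, a glutathione transferase of the mu class, was at 1307, 1322 and 884 CPM in the control libraries and 8079, 4378 and 6057 CPM in the treated libraries (log2 fold change 2.40 with SE 0.30, adjusted p = 0.000885), and Gstm3 at 36.1, 59.6 and 24.1 CPM in the control libraries and 2300.1, 1086 and 1308 CPM in the treated libraries (log2 fold change 5.29 with SE 0.62, adjusted p = 0.00164). Gsta1 was at 0.947, 2.38 and 1.90 CPM in the control libraries and 254, 156 and 122 CPM in the treated libraries (log2 fold change 6.67 with SE 0.85, adjusted p = 0.00314). Treated replicate 1 was the highest library for each of these genes, and the groups did not overlap. The mu and alpha transferases are close paralogs, so the estimation of counts may have moved reads between them. In the list of 22 glutathione transferases 10 rose and 2 fell, 1 without treated replicate 1.

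Slc7a11, the cystine importer that feeds glutathione synthesis, was at 0.0715, 0 and 0.168 CPM in the control libraries and 19.9, 4.002 and 4.45 CPM in the treated libraries (log2 fold change 6.84 with SE 1.13, adjusted p = 0.00476), with treated replicate 1 above 4 times the other treated libraries, and its call was lost with limma-voom (adjusted p = 0.15). Abcc4, an export pump of the basolateral membrane, was at 1.39, 1.06 and 2.61 CPM in the control libraries and 61.2, 23.9 and 24.03 CPM in the treated libraries (log2 fold change 4.43 with SE 0.55, adjusted p = 0.00151). The oxidative pentose phosphate enzymes, which make NADPH, were G6pdx at 3.02, 2.54 and 2.35 CPM in the control libraries and 14.02, 10.5 and 14.3 CPM in the treated libraries (log2 fold change 2.29 with SE 0.23, adjusted p = 0.000122) and Pgd at 18.7, 15.7 and 17.8 CPM in the control libraries and 156, 80.4 and 83.7 CPM in the treated libraries (log2 fold change 2.62 with SE 0.24, adjusted p = 0.00014). Ugdh, which makes the sugar donor of glucuronidation, was at 104, 112 and 83.6 CPM in the control libraries and 452, 347 and 332 CPM in the treated libraries (log2 fold change 1.91 with SE 0.16, adjusted p = 5.09e-05). In all of these genes the lowest treated library exceeded the highest control library. The promoters of Ugdh and G6pdx are shown because both genes rose and hold the core letters of the antioxidant response element, TGACNNNGC, in capitals below on whichever strand they lie. They are RefSeq's 250 bases before the start, build GRCm38.p6, minus strand of chr5:65435843-65436092 and chrX:74428881-74429130, 5′ to 3′.
Ugdh: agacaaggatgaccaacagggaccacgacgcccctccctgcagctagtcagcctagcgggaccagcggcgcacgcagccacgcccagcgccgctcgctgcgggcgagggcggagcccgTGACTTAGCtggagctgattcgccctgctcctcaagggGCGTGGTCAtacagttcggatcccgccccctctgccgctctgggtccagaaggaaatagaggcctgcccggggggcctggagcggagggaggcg
G6pdx: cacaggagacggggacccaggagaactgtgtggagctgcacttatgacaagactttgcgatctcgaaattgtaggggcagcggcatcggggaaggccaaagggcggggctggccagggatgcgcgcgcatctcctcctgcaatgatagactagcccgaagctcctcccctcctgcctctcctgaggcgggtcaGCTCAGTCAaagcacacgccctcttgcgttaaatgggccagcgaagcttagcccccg
In Ugdh the matches start 132 and 94 bases before the start, and in G6pdx 57 bases before it. The letters were in 7 of 29 listed genes with a promoter in the table, 6 of the 22 that rose and 1 of the 7 others, and in 11.5% of all 27025 genes. A match describes the letters only, and a gene without one may hold it outside this window.

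Among other stress genes, 9 of 28 integrated stress response genes rose and none fell, and none of 26 genes for folding and degradation in the endoplasmic reticulum was called by edgeR. In the latter list 2 genes had an unadjusted p under 0.05, against 5721 of all 18113 genes tested. DESeq2 called 1 of the list higher and limma-voom none, and with library totals 6 were higher. Bag3, a cochaperone, was with Hspb8 the riser among 18 cytosolic chaperones (log2 fold change 0.94, adjusted p = 0.00242), against 9.36% higher over all genes. Without control replicate 1 or treated replicate 2 the call of Hspb8 was lost. The lysosome and autophagy list had 15 of 42 genes higher and 4 lower. Atp6v0d2, a macrophage subunit of the proton pump, was at 2.54, 2.21 and 2.71 CPM in the control libraries and 29.8, 33.5 and 33.98 CPM in the treated libraries (log2 fold change 3.71 with SE 0.21, adjusted p = 5.16e-06), and Ctsd, the protease cathepsin D, at 294, 278 and 281 CPM in the control libraries and 742, 781 and 713 CPM in the treated libraries (log2 fold change 1.39 with SE 0.10, adjusted p = 2.05e-05). Ctsf, a cathepsin, and the receptor gene Scarb2, named after their values were seen, fell (-0.85 and -0.42 on the log2 scale). The proteasome activator subunits Psme1 and Psme2 rose 1.81-fold and 1.59-fold (adjusted p = 0.000527 and 0.000448). Of 38 proteasome genes 4 were called, against 17.8% of all genes.

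**Figure D4:**
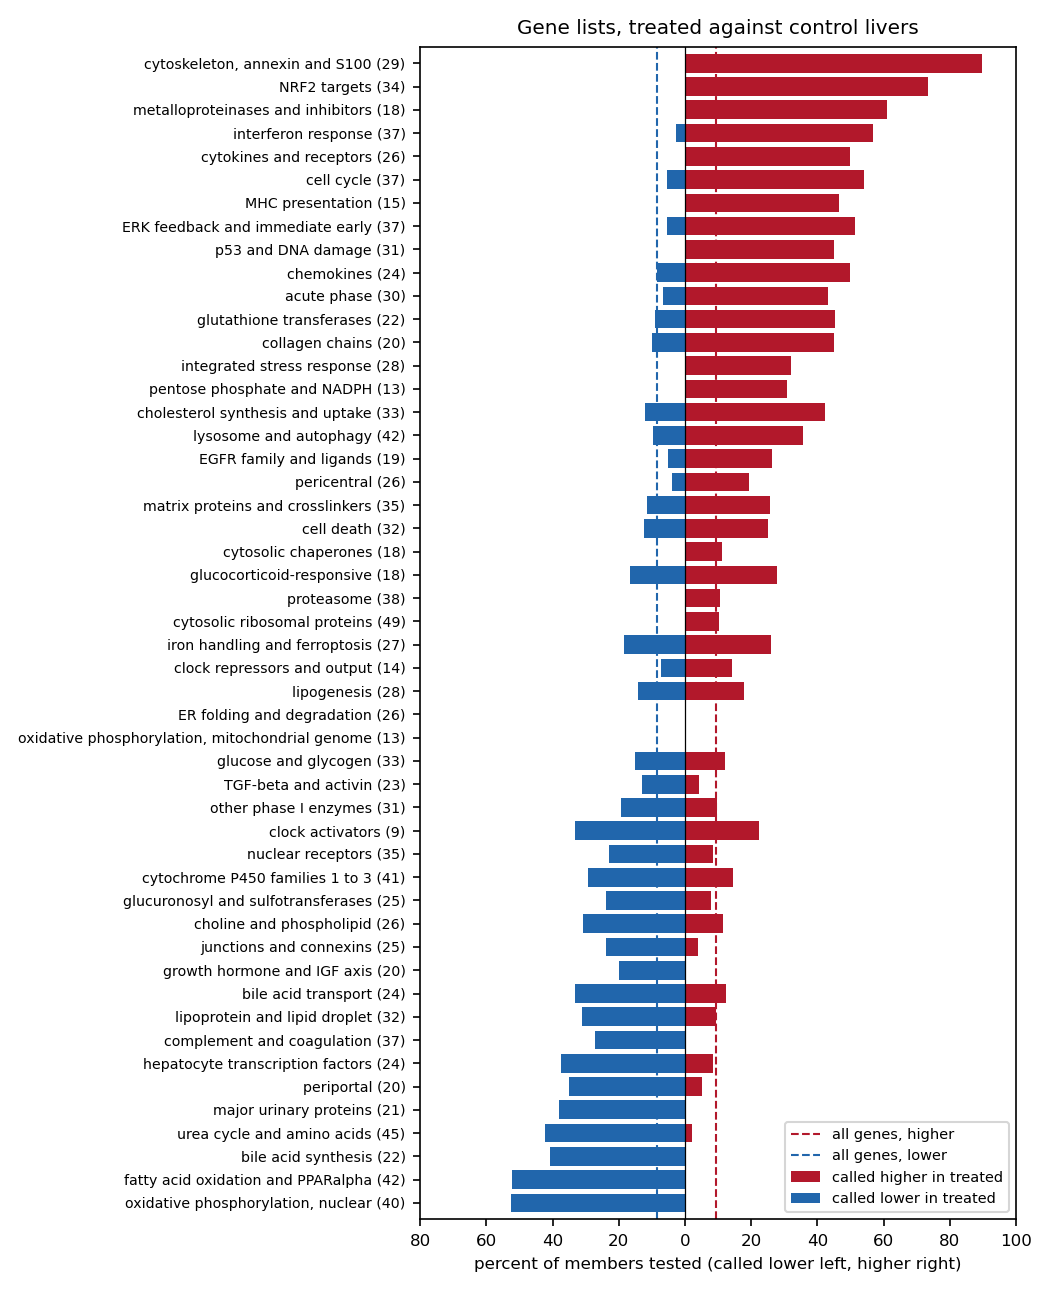
Percent of the tested members of each list of gene functions, without the cell type markers (number tested in brackets) called higher (red, to the right) and lower (blue, to the left) in treated livers, with dashed lines at the shares over all genes, 9.36% and 8.47%. The largest shares higher are those of the cytoskeletal, NRF2 and metalloproteinase lists with 26 of 29, 25 of 34 and 11 of 18 members, and the largest shares lower those of the nuclear oxidative phosphorylation and fatty acid oxidation lists with 21 of 40 and 22 of 42 members.

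The most abundant transcripts of the liver took a smaller share of the reads in treated livers. Genes with a mean of at least 1000 CPM held 46.3, 49.0 and 48.1% of the counts of tested genes in the control libraries and 41.8, 43.1 and 45.4% in the treated libraries, with no overlap. Of these 119 genes 38 were lower (31.9%) and 8 higher (6.72%), and on the TMM scale, which also lowers the sum of all genes in treated livers, their summed level was 506886 CPM in control and 398986 CPM in treated livers. Among 5357 genes between 1 and 10 CPM, 385 were lower (7.19%) and 621 higher (11.6%). With library totals the numbers of the most abundant class were 22 lower and 16 higher. CPM is not scaled to gene length, so these classes order genes by reads.

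**Figure D5:**
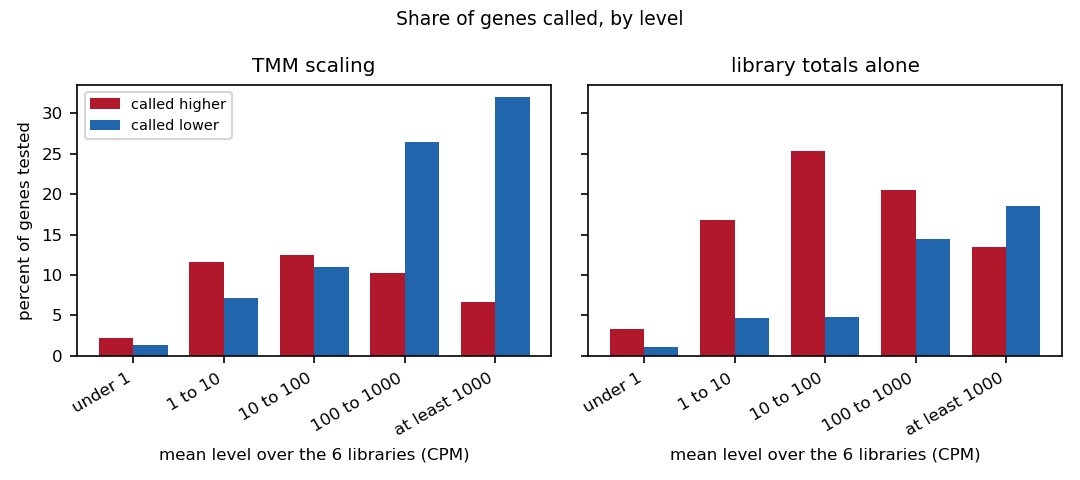
Percent of genes called higher (red) and lower (blue) in treated livers by mean level over the 6 libraries (CPM classes), under TMM scaling on the left and library totals on the right. Under both scalings the share called lower is largest in the class of at least 1000 CPM, with 38 of 119 genes under TMM and 22 of 119 under library totals.

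The major urinary proteins, pheromone carriers that male mouse hepatocytes secrete in large amounts, were part of that fall. Of 21 tested family members 8 fell and none rose (median -2.08), 5 without control replicate 2 or 3 or treated replicate 3. The family summed to 51105, 95332 and 75839.8 CPM in control, 46183, 42793 and 44557 CPM in model and 6464, 30538 and 22556 CPM in treated libraries, so the treated libraries were the lowest and themselves spread several-fold. Mup3 was at 6597, 7533 and 7072 CPM in the control libraries and 1113, 2318 and 2265 CPM in the treated libraries (log2 fold change -1.90 with SE 0.26, adjusted p = 0.00117), and Mup21 at 161, 332 and 464 CPM in the control libraries and 11.1, 15.5 and 18.005 CPM in the treated libraries (log2 fold change -4.42 with SE 0.76, adjusted p = 0.00982). The members are near-identical copies, so values of single members are uncertain. Family members are known to respond to growth hormone. Of 20 genes of the growth hormone and IGF axis 4 fell, against 8.47% of all genes, and none rose. With library totals 3 fell. A link between this list and the major urinary proteins was not tested. Igfals, the acid-labile partner of IGF1 in plasma, was at 176, 104 and 123 CPM in the control libraries and 42.8, 54.2 and 55.1 CPM in the treated libraries (log2 fold change -1.40 with SE 0.18, adjusted p = 0.000552).

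Some other secreted proteins of hepatocytes were lower. Of 22 hepatocyte markers 9 fell, 13 were not called and none rose, and 5 fell without control replicate 2 or treated replicate 1. With library totals 5 fell and 3 rose. The alpha-1-antitrypsin genes Serpina1a, Serpina1b and Serpina1c, close paralogs, fell 1.77-fold, 1.77-fold and 1.88-fold (adjusted p = 0.00107, 0.00111 and 0.00101). Mug1, a murinoglobulin protease inhibitor, was at 4853, 8202 and 6990.1 CPM in the control libraries and 2007, 3091 and 3485 CPM in the treated libraries (log2 fold change -1.22 with SE 0.23, adjusted p = 0.00441).

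Many genes of hepatocyte energy metabolism were lower, and a similar number was not called. Of 42 genes of fatty acid oxidation and PPAR-alpha 22 fell, 5 of them at least 2-fold, and none rose (median -0.60). The number was 13 without treated replicate 1 or 3. Slc27a2, a fatty acid transporter and very long chain acyl-CoA synthetase, was at 1777, 2048 and 1792 CPM in the control libraries and 674, 945 and 828 CPM in the treated libraries (log2 fold change -1.20 with SE 0.14, adjusted p = 0.00029). Every treated library lay below every control library. With library totals 12 genes of the list fell and none rose.

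Of 40 nuclear genes of oxidative phosphorylation 21 fell and none rose, with a median of -0.35. Ndufb9, a complex I subunit, was at 165, 162 and 198 CPM in the control libraries and 99.7, 112 and 95.1 CPM in the treated libraries (log2 fold change -0.78 with SE 0.13, adjusted p = 0.00203). That count rested on the scaling and on single libraries. It was 3 with library totals, 13, 11 and 12 without control replicates 1, 2 and 3, and 8 and 11 without treated replicates 1 and 3. None of the 13 genes of the mitochondrial genome was called by edgeR (median -0.22), and DESeq2 called 1 lower and limma-voom none. An unadjusted p under 0.05 was found for 4 of the 13, a share close to that over all genes tested (5721 of 18113).

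Amino acid catabolism was lower as a list, with 19 of 45 genes down and 1 up (12 down without treated replicate 1, and none up without control replicate 2 or 3 or treated replicate 2 or 3). Gls2, a glutaminase, was at 258, 254 and 277 CPM in the control libraries and 91.2, 118 and 130.0 CPM in the treated libraries (log2 fold change -1.22 with SE 0.13, adjusted p = 0.000196), and Hal, histidase, at 273, 402 and 371 CPM in the control libraries and 144, 136 and 137 CPM in the treated libraries (log2 fold change -1.32 with SE 0.15, adjusted p = 0.000303). With library totals 12 genes of the list fell and 2 rose. The periportal list, which shares Gls2 and Hal, had 7 of 20 genes lower, 4 without treated replicate 1. Its 1 higher gene lost the call without any single library. The pericentral list had 5 of 26 genes higher and 1 lower, 2 without control replicate 1 or treated replicate 3. The lower gene was Cyp2e1, at 6585, 7989.6 and 9585 CPM in the control libraries and 2339, 4067 and 4481 CPM in the treated libraries (log2 fold change -1.15 with SE 0.22, adjusted p = 0.00541).

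Glucose genes divided by tissue form. Pkm, pyruvate kinase of the muscle type, was at 11.6, 10.2 and 10.8 CPM in the control libraries and 43.8, 45.04 and 46.8 CPM in the treated libraries (log2 fold change 2.06 with SE 0.14, adjusted p = 1.36e-05), and the hexokinase Hk3 of leukocytes at 3.56, 3.29 and 2.74 CPM in the control libraries and 18.6, 16.7 and 20.4 CPM in the treated libraries (log2 fold change 2.54 with SE 0.17, adjusted p = 1.43e-05). Pcx, pyruvate carboxylase, which starts glucose formation, was at 475, 557 and 466 CPM in the control libraries and 273, 311 and 301 CPM in the treated libraries (log2 fold change -0.76 with SE 0.12, adjusted p = 0.0017). The first pair rose and the third gene fell with separate groups in each case, and of 33 genes in the list 4 rose and 5 fell (3 without treated replicate 3). The median of the list was -0.03, and 0.17 with library totals, which also left 9 genes higher and 2 lower. The sums of macrophage and skeletal muscle genes, tissues that use the muscle type enzyme, were higher in the same libraries, and their part was not tested.

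Genes of cholesterol synthesis rose in part. Of 33 genes of cholesterol synthesis, uptake and export 14 rose and 4 fell, with 9 risers without control replicate 2 or any treated replicate, and 2 fallers without treated replicate 1. Dhcr7, the last reductase of cholesterol synthesis, was at 22.9, 19.997 and 13.9 CPM in the control libraries and 61.1, 52.6 and 77.6 CPM in the treated libraries (log2 fold change 1.75 with SE 0.22, adjusted p = 0.000677). Soat1, which esterifies cholesterol in macrophages, was at 3.43, 2.44 and 5.75 CPM in the control libraries and 18.8, 21.2 and 17.9 CPM in the treated libraries (log2 fold change 2.32 with SE 0.28, adjusted p = 0.000421). Mylip, the ubiquitin ligase that degrades the LDL receptor, fell 2.90-fold (log2 fold change -1.53, adjusted p = 0.00074). The biliary sterol exporter pair Abcg5 and Abcg8, named after their values were seen, fell by 0.89 and 0.86 on the log2 scale, and the call of Abcg8 was lost without treated replicate 1 or 2. The remaining member that fell was Abca1, also named after its values were seen, at -0.46 on the log2 scale with its call lost under 8 alternatives. Among lipogenic genes 5 of 28 rose and 4 fell. The adipogenic receptor Pparg was at 4.43, 1.83 and 1.12 CPM in the control libraries and 17.9, 16.9 and 14.3 CPM in the treated libraries (log2 fold change 2.73 with SE 0.44, adjusted p = 0.00315), and Mlxipl, the carbohydrate-response factor ChREBP, fell 1.95-fold (log2 fold change -0.96, adjusted p = 0.00149). G0s2, an inhibitor of the triglyceride lipase ATGL, was at 77.7, 101 and 228 CPM in the control libraries and 17.04, 21.3 and 10.4 CPM in the treated libraries (log2 fold change -3.06 with SE 0.47, adjusted p = 0.00506), and Hilpda, a hypoxia-induced inhibitor of the same lipase, rose 2.94-fold (log2 fold change 1.56, adjusted p = 0.00328).

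Drug-metabolising enzymes were divided. Of 41 cytochrome P450 genes of families 1 to 3 there were 6 risers and 12 fallers. The list's median was -0.16, and 0.03 with library totals. Cyp2a5, a coumarin hydroxylase known to rise in liver injury, was at 44.7, 222 and 43.9 CPM in the control libraries and 3105, 1757 and 1725 CPM in the treated libraries (log2 fold change 4.41 with SE 0.79, adjusted p = 0.0112). Control replicate 2 stood about 5 times above the other control libraries, and all treated libraries stood above it. Cyp1a2, which metabolises arylamines, was at 315, 612 and 421 CPM in the control libraries and 1209, 1011 and 1321 CPM in the treated libraries (log2 fold change 1.39 with SE 0.25, adjusted p = 0.00476). Cyp2d22, a relative of the human enzyme CYP2D6 that metabolises gefitinib, was at 401, 637 and 565 CPM in the control libraries and 339, 427 and 401 CPM in the treated libraries. Its groups overlapped and it was not called (log2 fold change -0.46 with SE 0.16, adjusted p = 0.0776). Of the related Cyp2d genes, Cyp2d26 and Cyp2d40 fell 1.81-fold and 3.01-fold (adjusted p = 0.001 and 0.00202). The carboxylesterase Ces3b was at 839, 565 and 632 CPM in the control libraries and 119, 179 and 192 CPM in the treated libraries (log2 fold change -2.05 with SE 0.20, adjusted p = 0.00011), and the epoxide hydrolase Ephx2 fell 2.50-fold (log2 fold change -1.32, adjusted p = 0.00034). Among 25 glucuronosyl and sulfotransferase genes 2 rose and 6 fell.

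Bile acid synthesis was lower in 9 of 22 genes and higher in none, with 5 without control replicate 1 or treated replicate 3, 3 without control replicate 2 and 4 without treated replicate 1. Cyp8b1, the 12-alpha-hydroxylase that forms cholic acid, was at 469, 638 and 614 CPM in the control libraries and 234, 313 and 271 CPM in the treated libraries (log2 fold change -1.07 with SE 0.16, adjusted p = 0.00118). Cyp7a1, the first and rate-limiting step, was named after its values were seen, at 60.9, 27.2 and 47.7 CPM in the control libraries and 78.8, 76.9 and 47.3 CPM in the treated libraries. Its groups overlapped and it was not called (log2 fold change 0.58 with SE 0.41, adjusted p = 0.394). The uptake transporters Slco1b2 and Slco2b1 fell 2.01-fold and 2.11-fold (adjusted p = 0.00188 and 0.000448). Of 24 bile acid transport genes 8 fell and 3 rose, or 5 without control replicate 2, the highest rise being that of Abcc4 given above.

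Some regulators of hepatocyte identity were lower. Of 24 hepatocyte transcription factors 9 fell and 2 rose (1 without control replicate 2), with 5 fallers without control replicate 2 or treated replicate 3 and 5 with library totals. Cebpa, a leucine zipper factor of the differentiated hepatocyte, was at 261, 281 and 262 CPM in the control libraries and 139.6, 135 and 104 CPM in the treated libraries (log2 fold change -1.09 with SE 0.15, adjusted p = 0.000694). Foxa2 and Gata4, factors of liver development, fell 2.34-fold and 2.59-fold (adjusted p = 0.00124 and 0.000247). Among 35 nuclear receptors 3 rose and 8 fell, with 4 fallers without control replicate 2 or treated replicate 1 or 3, and with library totals 6 rose and 4 fell. Nr1i3, the drug sensor CAR, was at 794, 936 and 1007 CPM in the control libraries and 462, 513 and 369.9 CPM in the treated libraries (log2 fold change -1.02 with SE 0.17, adjusted p = 0.002), but most of its exon bases are shared with Tomm40l.

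Long noncoding RNAs were more often lower than higher. Of 1653 tested 132 fell and 28 rose, with a median log2 fold change of -0.48, against 1351 lower and 1617 higher of 14342 protein-coding genes with a median of 0.01. At matched levels of 1 to 10 CPM, 83 of 486 long noncoding genes were lower and 7 higher, while 276 of 4289 coding genes were lower and 590 higher. With library totals the median of the 1653 was -0.27, with 100 lower and 44 higher. Leaving out 1 library lowered the 28 risers to 18 without control replicate 3, 17 without treated replicate 1 and 15 without treated replicate 2. At 1 to 10 CPM, 12 long noncoding genes were higher without control replicate 1 and 53 lower without treated replicate 2, and 176 coding genes were lower without treated replicate 1. No test of this difference was made. Hnf4aos, the antisense transcript beside Hnf4a, named after its values were seen, was at 4.99, 7.83 and 6.98 CPM in the control libraries and 1.83, 1.71 and 2.47 CPM in the treated libraries (log2 fold change -1.72 with SE 0.28, adjusted p = 0.00203). Prox1os, beside the factor Prox1, was at 6.38, 7.77 and 10.3 CPM in the control libraries and 3.93, 2.02 and 2.90 CPM in the treated libraries (log2 fold change -1.47 with SE 0.32, adjusted p = 0.0101). Each fell with separate groups. Whether counting used the strand is not given in the sources used here, so reads of an antisense gene and of its partner may have been mixed where they overlap. Neat1, the scaffold of nuclear paraspeckles, rose, from 651, 495 and 446 CPM to 1222, 1056 and 895 CPM (log2 fold change 0.996 with SE 0.19, adjusted p = 0.00453). Prox1os and Neat1 were likewise named after their values were seen.

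Lipoprotein and phospholipid genes were lower in part. Of 32 genes of lipoproteins and lipid droplets 10 fell and 3 rose, with 6 fallers without control replicate 3 and 4 without treated replicate 1, and the list's median was -0.14, or 0.07 with library totals, which left 4 higher and 4 lower. Lipc, the hepatic lipase, was at 257, 243 and 224 CPM in the control libraries and 134, 161 and 166 CPM in the treated libraries (log2 fold change -0.65 with SE 0.12, adjusted p = 0.00413). Of 26 genes of choline and phospholipid metabolism 8 fell and 3 rose, with 4 fallers without treated replicate 3 and 5 without control replicate 3 or treated replicate 1 or 2. The median of that list was -0.14, or 0.07 with library totals, which left 6 higher and 4 lower. Gnmt, which uses up methyl groups on glycine, was at 967, 1004 and 1450.0 CPM in the control libraries and 395, 462 and 544 CPM in the treated libraries (log2 fold change -1.29 with SE 0.18, adjusted p = 0.000887). Etnppl, which breaks down phosphoethanolamine, was at 145, 154 and 139.6 CPM in the control libraries and 69.03, 35.8 and 43.7 CPM in the treated libraries (log2 fold change -1.56 with SE 0.21, adjusted p = 0.000879). In each of these 3 genes every treated library lay below every control library.

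Iron genes moved in both directions, with 7 of 27 higher, 4 without control replicate 2, and 5 lower. Besides Hamp2, Slc40a1, Fth1 and Slc7a11 given above, Slc3a2, the partner chain of the cystine importer, was at 37.2, 37.8 and 40.9 CPM in the control libraries and 59.02, 59.2 and 62.1 CPM in the treated libraries (log2 fold change 0.64 with SE 0.09, adjusted p = 0.000793). Among 8 erythroid genes the heme synthesis gene Alas2 fell from 140.4, 127 and 76.7 CPM to 12.2, 15.9 and 42.4 CPM (log2 fold change -2.29, adjusted p = 0.0239), but the call was lost without control replicate 1 or 2 or treated replicate 1 or 2. In the TGF-beta list 1 of 23 genes rose and 3 fell, against 9.36% and 8.47% of all genes (2 rose and 2 fell with library totals). The riser was the receptor Tgfbr2, at 12.4, 13.1 and 13.4 CPM in the control libraries and 25.9, 29.6 and 28.8 CPM in the treated libraries (log2 fold change 1.12 with SE 0.16, adjusted p = 0.00111). Besides Bmp2, the inhibitory factors Smad6 and, named after its values were seen, Smad7 fell in the full set of libraries (-1.31 and -0.77 on the log2 scale), and 1 gene of the list fell without control replicate 2 or 3 or treated replicate 3.

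Junction genes fell in 6 of 25 cases and rose in 1. The number that fell was 3 without control replicate 1, 2 without control replicate 2 and 2 with library totals, which also moved the median from -0.05 to 0.16. Cgn, cingulin of the tight junction, was at 44.3, 52.9 and 62.6 CPM in the control libraries and 30.5, 33.1 and 24.4 CPM in the treated libraries (log2 fold change -0.86 with SE 0.14, adjusted p = 0.00239). Its groups were separate, with every treated library lower.

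Among all called genes counted in both groups, the largest fitted rises (no overlap of the groups and at least 5 CPM in treated livers) included the following 4. H2-M2, a nonclassical MHC class I gene, was at 0.0715, 0 and 0 CPM in the control libraries and 5.94, 8.61 and 8.62 CPM in the treated libraries (log2 fold change 8.18 with SE 0.85, adjusted p = 0.0002). Sprr1a, a cornified envelope protein known from regenerating tissue, was at 0, 0.0769 and 0 CPM in the control libraries and 9.74, 9.29 and 2.94 CPM in the treated libraries (log2 fold change 8.08 with SE 0.94, adjusted p = 0.000476). Both control groups held 1 library with reads, so their folds rest on very low control levels. Cbr3, a carbonyl reductase, rose from 0.268, 0 and 0.317 CPM to 24.1, 7.15 and 7.08 CPM (log2 fold change 6.01, adjusted p = 0.00341), and Elovl7, an elongase of long-chain fatty acids, from 0.179, 0.385 and 0.224 CPM to 29.9, 9.23 and 7.44 CPM (log2 fold change 5.88, adjusted p = 0.00421). In Cbr3 and Elovl7 treated replicate 1 was about 3 times the other treated libraries, and both calls were lost with limma-voom (adjusted p = 0.0795 and 0.0544).

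The largest fitted falls (no overlap of the groups and at least 5 CPM in control livers) included the following 4. Mup21, Hamp2, G0s2 and Oit3, given above, each fell by more than Col13a1, the smallest fall of the 4. Adgrv1, a very large adhesion receptor, was at 41.9, 23.2 and 16.9 CPM in the control libraries and 0.895, 1.30 and 1.79 CPM in the treated libraries (log2 fold change -4.36 with SE 0.57, adjusted p = 0.00163), and Clec2h, a lectin-like receptor, at 32.7, 19.9 and 10.8 CPM in the control libraries and 2.33, 1.04 and 2.83 CPM in the treated libraries (log2 fold change -3.35 with SE 0.52, adjusted p = 0.0039). Cyp26b1, which degrades retinoic acid, was at 4.72, 5.60 and 11.3 CPM in the control libraries and 0.44, 0.916 and 0.944 CPM in the treated libraries (log2 fold change -3.23 with SE 0.53, adjusted p = 0.00223), and Col13a1, a transmembrane collagen, at 2.98, 4.61 and 8.12 CPM in the control libraries and 0.352, 1.04 and 0.74 CPM in the treated libraries (log2 fold change -2.88 with SE 0.49, adjusted p = 0.00265). Control libraries of these 4 genes spread by a factor of about 2 to 3. The genes were picked among those without overlap, so the separation of their groups is not a further result. Among the falls with the smallest p were Arhgap29, an inhibitor of the GTPase RhoA, at 73.7, 66.9 and 70.4 CPM in the control libraries and 31.3, 27.3 and 28.8 CPM in the treated libraries (log2 fold change -1.27 with SE 0.10, adjusted p = 4.33e-05), and Hykk, a hydroxylysine kinase, at 89.5, 92.97 and 86.2 CPM in the control libraries and 33.3, 40.4 and 34.5 CPM in the treated libraries (log2 fold change -1.31 with SE 0.10, adjusted p = 3.75e-05). Among the rises with the smallest p, Capg, an actin-capping protein of macrophages, was at 0.912, 0.981 and 1.29 CPM in the control libraries and 31.6, 34.5 and 26.1 CPM in the treated libraries (log2 fold change 4.86 with SE 0.24, adjusted p = 2.76e-06).

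Genes of the daily clock changed in both directions, with 8 of 23 called against 17.8% of all genes, and most of these calls were lost without 1 of the libraries. Of 9 clock activators and their partners 2 rose and 3 fell, with 1 riser without control replicate 2 or 3 or treated replicate 1 or 2, and 1 faller without control replicate 2 or treated replicate 3. With library totals 2 of the 9 rose and 1 fell. Of 14 repressors and outputs 2 rose and 1 fell, and of these Csnk1e, a kinase of the period proteins, kept its call under every alternative (log2 fold change 0.88, adjusted p = 0.00321). Bhlhe41, a repressor of the activator pair CLOCK and BMAL1, rose from 0.59, 0.192 and 0.131 CPM to 2.92, 3.01 and 1.72 CPM (log2 fold change 3.05, adjusted p = 0.00467). The output gene Dbp, named after its values were seen, was at 26.5, 8.81 and 3.92 CPM in the control libraries and 3.12, 11.9 and 2.09 CPM in the treated libraries. Its groups overlapped, control libraries alone ranged several-fold, and it was not called (log2 fold change -1.20 with SE 0.91, adjusted p = 0.439). The hour of sampling is not in the labels. Of 18 glucocorticoid-responsive genes 5 rose and 3 fell, with 1 riser without control replicate 2, 2 without treated replicate 2 and 3 without control replicate 1 or treated replicate 3, and 1 faller without control replicate 2 or 3 or treated replicate 1. Cytosolic ribosomal protein genes had 5 of 49 members higher, close to the 9.36% of all genes, and none lower, against 8.47%. The number higher was 0 without control replicate 2 or treated replicate 1, 1 and 2 without control replicate 1 and treated replicate 3, and 8 without control replicate 3. With library totals 20 of the 49 were higher, against 3021 of all 18113 genes.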

How the data were processed

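The libraries were mouse liver RNA, 3 each labelled control, model and treated. Per the submitters' processing notes HISAT2 was used, with no version named, and the counting tool, annotation release and build were not given. The gene positions matched GENCODE M21, hence build GRCm38 (27859 of 27945 gene IDs with a count were found there, 25083 with the same start and end). The deposited gene matrix holds expected counts (whole numbers estimated from coverage), which the authors' deposited FPKM values reproduce from transcript lengths. Symbols came from the FPKM file.

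Here the counts as deposited were filtered (minimum count 10, minimum total 15), scaled by TMM and fitted with edgeR 4.0.16 (R 4.3.3), a quasi-likelihood model over all 9 libraries with the contrast treated minus control. P-values were adjusted by Benjamini and Hochberg over 18113 genes at 0.05, and SE was the fold change over the root of F. The fit was also run on counts simulated from its own means and dispersions, which checks the code but cannot test the model. With 3 libraries a group, an exact permutation test cannot go below p = 0.1 and was not used for single genes. Alternatives were DESeq2 1.42.0, limma-voom (limma 3.58.1), limma on log2 FPKM plus 0.1 or 1, 4 other scalings, filters, a replicate block and leaving out each library. The comparison and its 65 gene lists (1611 entries tested, 1448 genes) were chosen with earlier results of these data known. Genes named had a count in both groups and were the 12 with the largest called fold each way (at least 5 CPM in the higher group, no overlap), the 10 with the largest change in CPM, the 8 with the smallest p, up to 3 called per list by p, and some fixed by name. Others are said to be named after their values were seen. Promoters are RefSeq's, with 27025 genes. Results of a few genes are not reported here.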

Additional observations from a re-analysis of the deposited data

How the results depend on the processing

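The number of genes called depended on the scaling. With library totals 3021 genes were higher and 819 lower in treated livers. With limma on FPKM, which changes the unit, the scaling and the test together, log2(FPKM + 0.1) gave 3266 genes higher and 863 lower, of which 1400 were at least 2-fold higher, and with log2(FPKM + 1) 3314 were higher and 849 lower, of which 554 were at least 2-fold higher and 129 at least 2-fold lower. The cause was not tested beyond the shift of the median of all genes, 0.21 with library totals. Leaving out 1 library at a time gave 1170 to 1358 genes higher and 999 to 1233 lower, with the lowest number of each without treated replicate 1, and 716 to 863 genes at least 2-fold higher and 403 to 511 at least 2-fold lower. DESeq2 called 2306 higher and 1907 lower.

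The labels do not say whether replicate numbers pair the samples, and 3 libraries a group cannot settle it. The correlations of same-numbered libraries' deviations were -0.029, 0.072 and 0.009, and those of differently numbered libraries ran from -0.06 to 0.053. A fit with the replicate number as a block called 1398 genes higher and 1213 lower, with 808 and 471 at least 2-fold.

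Of 152 genes named above with a call, 137 kept it under all 19 alternatives, 15 lost it under at least 1, and 10 of these lost it without 1 of the libraries. No called gene named above changed sign. Limits are the 3 libraries a group, and, for genes near 1 CPM or lower, few counts.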
